A study of Mus musculus with 8 samples.

Results

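The Egr family of transcription factors and their Nab corepressors were followed in cultured mouse lung group 2 innate lymphoid cells (ILC2s) as a set of 5 genes, Egr1, Egr2, Egr3, Nab1 and Nab2, of 23183 genes listed in the count files. The genes were taken by their symbols and were selected on the Yoda1 against DMSO contrast of these same libraries, so that contrast is described for them with no test. All 5 passed the filter on low counts, which kept 12239 genes. The fourth family member, Egr4, did not pass it and was not in the set. Bulk poly(A) RNA was sequenced from 8 samples of cultured ILC2s of C57BL/6 genotype (C57BL/6 J in the study's methods). Of these, 4 received 5 µM Yoda1, a chemical agonist of the mechanosensitive cation channel Piezo1, and 4 received the vehicle, 0.1% DMSO, and the study's methods give a 3 h treatment. All cells came from lungs of mice given IL-33, were enriched with a pan-ILC kit and CD45 beads, and were cultured with IL-2, IL-7 and IL-33, so the DMSO cells had also been exposed to these cytokines. The methods give wild-type mice of both sexes aged 6 to 10 weeks. The sources do not say if the 4 samples per group were separate mice, so p-values measure only the spread between these samples, which may be technical.

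Egr proteins are zinc finger transcription factors whose genes are switched on within minutes by growth factors, antigen receptors and calcium signals, largely through serum response factor and ternary complex factors downstream of the ERK kinases. They bind a GC-rich element, and in T cells Egr2 and Egr3 are known for genes that restrain activation. Nab1 and Nab2 have no DNA-binding domain of their own: they bind a short inhibitory domain present in Egr1, Egr2 and Egr3, and Nab2 can bring in the NuRD deacetylase complex through Chd4. Nab2 is itself an Egr target, so the pair is known as a negative feedback on the factors it binds. Egr4 lacks that inhibitory domain.

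Sequence before the start site is shown for Egr2 and Nab1, because these windows hold elements known from Egr biology. The sequences are from RefSeq (GRCm38.p6), which gave windows for Egr2, Nab1, Nab2 and Egr4 but not for Egr1 and Egr3. For Egr2, which has 5 RefSeq windows, the one nearest the principal GENCODE start was taken, and its 250 bases before the start, chr10:67537619-67537868 on the plus strand, are shown. This stretch is intronic in 2 longer Egr2 transcripts and overlaps no Egr2 exon. Capitals mark a CArG box, the element of serum response factor (CC, any 6 of A or T, then GG), and the TGACG core of cyclic AMP response elements, which reads CGTCA on the opposite strand.
Egr2: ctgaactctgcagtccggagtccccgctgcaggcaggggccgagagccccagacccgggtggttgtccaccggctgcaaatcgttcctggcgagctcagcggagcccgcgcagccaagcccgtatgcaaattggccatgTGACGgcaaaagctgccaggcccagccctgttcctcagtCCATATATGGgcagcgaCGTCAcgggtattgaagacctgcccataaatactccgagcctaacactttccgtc

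In the Egr2 window shown, the CArG box lies at bases -72 to -63, counted from the start site. A CArG box was present in 4 of the 5 Egr2 windows, which belong to 1 gene and may share the same box. Of the 32851 mouse promoter windows searched (250 bases before to 50 after each start, both strands), 1.63% held one. The TGACG cores are at -111 to -107 and -55 to -51. That core is frequent, being in 20.8% of windows, and the full palindrome TGACGTCA, found in 1.79% of windows, was in no Egr2 window.

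Nab1 carries the Egr element itself. The consensus GCGTGGGCG, found in 0.612% of windows, occurred at -141 to -133 on the opposite strand (chr1:52500581-52500589) and at -109 to -101 (chr1:52500549-52500557), and the variant GCGGGGGCG, found in 2.91% of windows, at -38 to -30 (chr1:52500478-52500486). All 3 are before the RefSeq start but inside the first exon, in the untranslated leader, of the longer GENCODE transcript Nab1-201. Each is shown with 10 bases on either side, with the element in capitals, in the order in which they are met along the Nab1 strand.
Nab1 first element: gccccgcggcCGCCCACGCcgggatctgc
Nab1 second element: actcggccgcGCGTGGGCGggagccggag
Nab1 last element: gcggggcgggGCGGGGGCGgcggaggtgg

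Either form was present in 3.47% of all windows, and 3 or more sites in 12 windows (0.0365%), of which that of Nab1 was one. The 250 bases before the Nab1 start were 80.8% G or C, and the windows compared were not matched for base composition. The Nab1 window also held 1 TGACG core. The Nab2 window, chr10:127666654-127666953, held none of the motifs searched. Its 250 bases before the start lie within 1 longer Nab2 transcript, and the gene, on the minus strand, reaches 127668568. Sequence before that further start had no window and was not searched. The Egr4 window held 2 TGACG cores and no CArG box or Egr site. A match is a description of the letters and not evidence that a factor binds there, and the exact 9 letters leave out weaker forms of the element.

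The genes lie on 4 chromosomes. In GENCODE M21 (GRCm38), Egr1 is on chromosome 18 from 34859823 to 34864984, Egr3 on chromosome 14 from 70077203 to 70082614, Egr2 on chromosome 10 from 67535475 to 67542188, Nab2 on the same chromosome from 127660918 to 127668568, and Nab1 on chromosome 1 from 52457294 to 52500679. The 3 Egr genes are on the plus strand with 2 exons in their principal transcript, and Nab1 and Nab2 are on the minus strand with 8 and 7 exons. Only Nab2 shares exon bases with other genes. Stat6 covers 40 of its exon bases, Nemp1 (listed as Tmem194) covers 151, and the antisense transcript Gm16229, which has no row under that name, covers 1050, or 35.7% of the Nab2 exons. All of these are on the opposite strand, and although the library kit keeps strand, the strand setting of the counting is not given in the sources used here, so reads of an antisense partner may be among the Nab2 counts. Stat6 and Tmem194 themselves did not pass the test, with log2 fold changes of 0.05 and 0.07 (edgeR quasi-likelihood, Benjamini-Hochberg adjusted p = 0.453 and 0.591).

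Library totals ranged from 12438009 to 19534653 counts, and TMM scaling factors, which correct for differences in library composition, from 0.988 to 1.01. Values are given below as CPM, the counts relative to the size of the TMM-scaled library. The markers of ILC2s were present, with Gata3 at 565 CPM and Il1rl1, the IL-33 receptor, at 1527 CPM in DMSO. The 16 listed markers summed to between 19006 and 19538 CPM in DMSO libraries and between 21258 and 21662 in Yoda1 libraries. Of the 16, 7 were higher and 1, Icos, was lower. The sum includes the cytokine genes Il13, at 5427 CPM in DMSO and 6662 in Yoda1 on average, and Il5, at 3335 and 3670. Gata3, Rora and Id2 did not pass the test, with log2 fold changes of 0.0002, 0.03 and -0.02. Of other cell types, 8 T cell markers summed to 72.1 to 80.7 CPM in DMSO and 77.7 to 87.0 in Yoda1, with none past the test. The 7 NK cell markers summed to 768 to 844 CPM and 816 to 882 CPM, and of these Eomes (log2 fold change 0.21) and Prf1 (0.14) passed it (edgeR's quasi-likelihood test, adjusted p = 0.0111 and 0.0174). Most of this sum was Gzma (344 CPM in DMSO) and Prf1 (384 CPM). Eomes averaged 37.7 CPM in DMSO and 43.7 CPM in Yoda1. Ncr1, Klrb1c, Klra8 and Klre1 averaged at most 8.57 CPM in DMSO. Log2 fold changes were above 0 in 5 of the 7 and below 0 in Ncr1 (-0.23) and Klrb1c (-0.21), neither past the test. B cell, macrophage and mast cell or basophil markers each summed to under 10 CPM in every library, Pax5, which defines B cells, being at 0. The part of these cells in the Egr and Nab values was not tested. Among 8 stromal and epithelial markers, whose sum was 217 to 230 CPM in DMSO and 222 to 226 in Yoda1, Pecam1 alone had 220.1 CPM in DMSO and 218.9 in Yoda1 on average, none of the others averaged above 3.29 CPM, and Sftpc and Scgb1a1 were at 0. Across all genes tested, 1331 passed an adjusted p of 0.05, or 10.9%, of which 739 were higher (6.04%) and 592 lower (4.84%) in Yoda1.

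Egr2 and Egr3 differed most between the groups, both near 2.6-fold higher in Yoda1-treated ILC2s, whereas Egr1 and Nab2 were about 1.3-fold and Nab1 about 1.1-fold higher. All 5 were past the threshold in the higher direction, beside 6.04% of all genes tested, and in all 5 every Yoda1 library lay above every DMSO library, beside 8.44% of all genes tested. As the genes were chosen on this contrast, nothing is read from these counts. In bulk RNA, more cells with the transcript and more transcript per cell cannot be told apart, which holds for every value below.

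Egr1, the founding member and a broadly used early response factor, was at 29.5, 32.5, 31.2 and 33.5 CPM in DMSO replicates 1 to 4 and at 39.8, 42.7, 43.6 and 44.4 CPM in Yoda1 replicates 1 to 4. The libraries of each group lay close together, and 6.24 CPM separated the highest DMSO from the lowest Yoda1 library. Means were 31.7 ± 1.73 CPM and 42.6 ± 2.02 CPM (SD, n = 4 each), and the difference was 0.43 on the log2 scale (SE 0.057). This gene had between 454 and 864 counts per library, and its coefficient of variation, 5.45% in DMSO and 4.75% in Yoda1, was close to what counting alone gives (4.49% and 3.98%).

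Egr2, known in T cells for its part in anergy and in Schwann cells for myelination, was the least abundant of the 5 per kb of exon. It stood at 5.82, 6.40, 4.79 and 7.83 CPM in the DMSO libraries and at 16.3, 18.4, 14.6 and 14.96 CPM in the Yoda1 libraries. The lowest Yoda1 library was 6.78 CPM above the highest DMSO library, which was replicate 4. Means were 6.21 ± 1.27 and 16.1 ± 1.73 CPM (SD, n = 4 each), and the difference was 1.38 on the log2 scale (SE 0.11). Counts per library ran from 75 to 303, the fewest of the set, and the spread in DMSO (20.4%) exceeded the 10.3% expected from counting.

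Egr3, a close paralogue of Egr2 that acts with it in lymphocytes, had 10.5, 11.9, 11.6 and 15.6 CPM in DMSO and 30.4, 32.9, 33.04 and 32.2 CPM in Yoda1. DMSO replicate 4 was again the highest control, whereas the 4 Yoda1 libraries all lay between 30.4 and 33.04 CPM. From a mean of 12.4 ± 2.20 CPM to one of 32.2 ± 1.21 CPM (SD, n = 4 each), the log2 fold change was 1.39 (SE 0.083). Its coefficient of variation was 17.7% in DMSO, above the 7.21% of counting, and 3.77% in Yoda1, below the 4.57% of counting. The fold changes of Egr2 and Egr3 were 16th and 17th from the top among all genes tested, in the order Egr3 then Egr2, and their 95% intervals, 1.16 to 1.603 for Egr2 and 1.22 to 1.55 for Egr3, overlapped nearly throughout.

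Egr4, which was not selected, stayed at the limit of detection. It had 1, 0, 0 and 0 counts in the DMSO libraries and 0, 0, 2 and 3 in the Yoda1 libraries. No library exceeded 3 counts, the limit that a count of 0 allows, so no fold is given and a difference was not detectable at this depth.

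Nab1 was the most abundant of the 5 per kb of exon and differed least. It had 127, 134, 130.2 and 130.7 CPM in DMSO and 147, 144, 148 and 146 CPM in Yoda1. The groups were tight and did not overlap, with 9.90 CPM between them. Means were 131 ± 2.67 and 146 ± 1.95 CPM (SD, n = 4 each), and the difference was 0.16 on the log2 scale (SE 0.037), and both groups varied by no more than counting gives (2.05% against 2.21% in DMSO, 1.33% against 2.14% in Yoda1).

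Nab2, the corepressor known to be induced by the factors it restrains, had 59.4, 62.6, 64.6 and 60.1 CPM in DMSO and 81.4, 80.1, 88.5 and 76.4 CPM in Yoda1. Replicate 3 was the highest in both groups, and the groups were 11.8 CPM apart. The means of 61.7 ± 2.37 and 81.6 ± 5.07 CPM (SD, n = 4 each) gave a log2 fold change of 0.40 (SE 0.048), similar to that of Egr1 and larger than that of Nab1. In Yoda1 its libraries varied by 6.22%, above the 2.86% of counting.

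**Figure D1:**
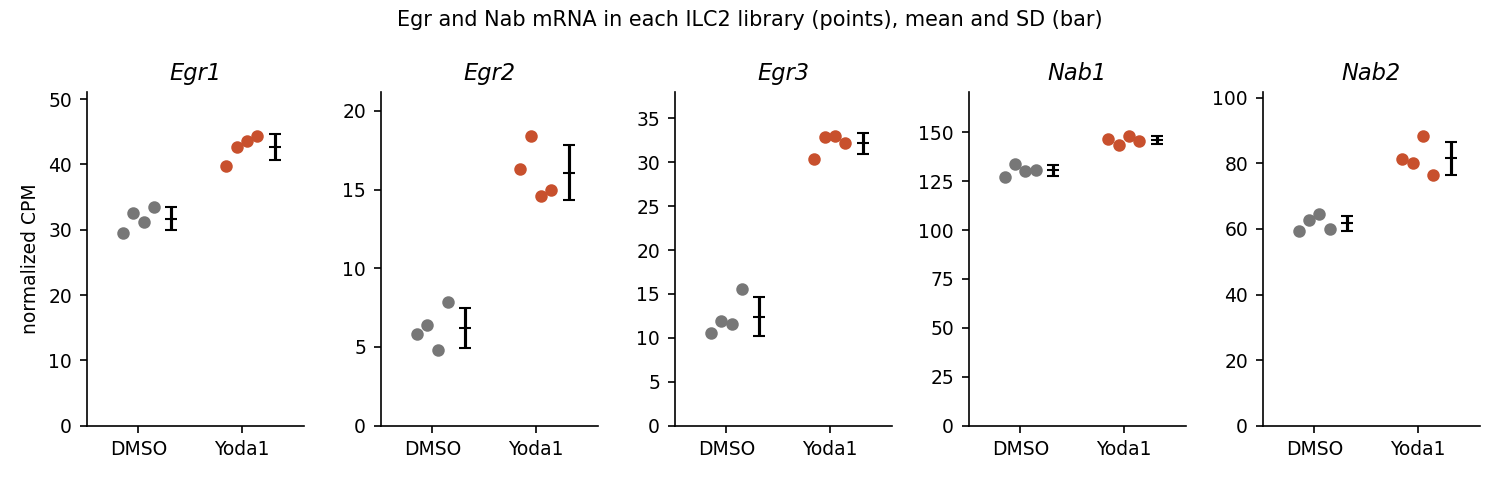
Normalized CPM (vertical axis, from 0 in each panel) of the 5 genes in the 4 DMSO libraries (grey) and the 4 Yoda1 libraries (orange), replicates 1 to 4 from left to right, with the mean and SD beside the points. In each panel all Yoda1 points lie above all DMSO points, with the widest relative gap for Egr2 and Egr3 and the narrowest for Nab1.

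To compare levels between genes, CPM was divided by the length of each gene's merged exons in kilobases. In DMSO the order was Nab1 (31.8 ± 0.651 CPM per kb), Nab2 (20.98 ± 0.807), Egr1 (7.07 ± 0.385), Egr3 (2.82 ± 0.4996) and Egr2 (1.83 ± 0.373; SD, n = 4 each). In Yoda1 it was the same, at 35.6 ± 0.475, 27.7 ± 1.72, 9.51 ± 0.452, 7.30 ± 0.275 and 4.73 ± 0.510 CPM per kb. No neighbours in either order overlapped between libraries, the closest being Egr3 and Egr2 in DMSO, where the lowest Egr3 library had 2.39 and the highest Egr2 library 2.30 CPM per kb. Among all genes tested, Nab1 and Nab2 stood at the 87.6th and 80.3rd percentile of the DMSO level per kb, Egr1 at the 53.1st, and Egr3 and Egr2 at the 30.8th and 23.5th.

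The makeup of the Egr transcript pool differed between the groups. Together the Egr genes gave 10.7, 11.8, 11.0 and 13.3 CPM per kb in the DMSO libraries and 20.6, 22.4, 21.6 and 21.7 in the Yoda1 libraries. Egr1 made up 60.5 ± 3.05% of this sum in DMSO and 44.1 ± 1.51% in Yoda1 (SD, n = 4 each). Over the same groups Egr3 went from 23.9 ± 1.90% to 33.8 ± 0.620%, and Egr2 from 15.5 ± 1.91% to 21.9 ± 2.15%. Egr1 was thus the majority of the pool in every DMSO library, at 56.1% or above, and in no Yoda1 library, where its highest share was 45.7%. The ratio of Egr3 to Egr2 per kb was 1.56 in both groups (SD 0.216 in DMSO and 0.175 in Yoda1). These shares follow from the values that selected the genes and are given without a test. They depend on the length used: with coding length alone, Egr1 and Egr3 had 57.0% and 30.5% of the pool in DMSO but 40.5% and 42.1% in Yoda1, so Egr3 then stood first in Yoda1.

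The Nab pool per kb was larger than the Egr pool in every library and differed less between groups. It measured 51.3, 53.9, 53.7 and 52.3 CPM per kb in DMSO and 63.5, 62.3, 66.3 and 61.5 in Yoda1. Per kb of merged exon, the ratio of Nab to Egr RNA was 4.54 ± 0.427 in DMSO and 2.94 ± 0.159 in Yoda1 (SD, n = 4 each). DMSO libraries ran from 3.93 to 4.87 and Yoda1 libraries from 2.78 to 3.09. The ratio depends on the length used, and reads of an antisense partner may be among the Nab2 counts. Within the pool, the Nab2 share was 39.7 ± 0.810% in DMSO and 43.7 ± 1.29% in Yoda1. In absolute terms the largest gain per kb was that of Nab2, 6.76 CPM per kb, followed by Egr3 (4.48), Nab1 (3.80), Egr2 (2.90) and Egr1 (2.44), an order unlike that of the fold changes. By coding length Egr3 came first, at 17.0 CPM per kb, before Nab2 (12.6), Nab1 (10.7), Egr2 (6.996) and Egr1 (6.83). These values are of RNA and do not give protein levels.

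**Figure D2:**
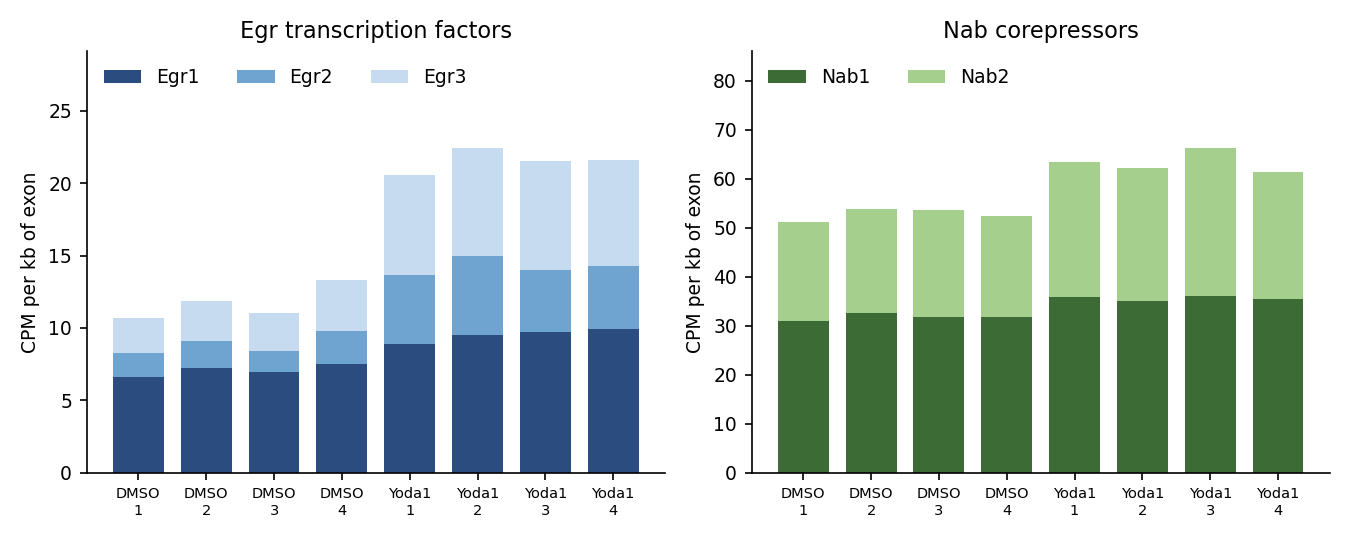
CPM per kb of exon (vertical axes, from 0, on different scales) in each of the 8 libraries, stacked for Egr1, Egr2 and Egr3 on the left and for Nab1 and Nab2 on the right. The Egr stack is 10.7 to 13.3 high in DMSO libraries and 20.6 to 22.4 in Yoda1 libraries, with most of the difference in the Egr2 and Egr3 segments, and the Nab stack is 51.3 to 53.9 and 61.5 to 66.3 high.

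Variation among libraries of the same group did not enter the selection. After each group's mean log2 CPM was subtracted, Egr1 and Egr3 deviated together over the 8 libraries (Pearson r = 0.77). Taken alone, the 4 DMSO libraries gave 0.88 and the 4 Yoda1 libraries 0.83. Egr2 and Egr3 had r = 0.66, but without DMSO replicate 4, which was 0.35 above its group for Egr2 and 0.34 above for Egr3 on the log2 scale, r was -0.01. Nab1 and Nab2 had r = 0.55. Egr1 with Nab1 (0.44), Egr1 with Egr2 (0.32) and Egr3 with Nab1 (0.27) were lower. Nab2 gave values near 0 with Egr1 (0.01) and Egr3 (-0.04) and a negative one with Egr2 (-0.41). Other values also rested on single libraries. Without DMSO replicate 1, r was 0.018 for Egr1 and Nab1, -0.28 for Egr1 and Nab2 and -0.22 for Egr3 and Nab1. Without DMSO replicate 4 it was -0.09 for Egr1 and Egr2 and 0.46 for Egr3 and Nab2, and for Egr1 and Nab2 it was -0.24 without Yoda1 replicate 3 and 0.32 without Yoda1 replicate 4. Ranked among all genes by this within-group r, Egr3 was 215th in likeness to Egr1, and Nab1 was 983rd in likeness to Nab2. These are descriptions over 8 points that share the scaling of their library. The deviations of Nab1 and Egr1, and those of Egr3 in Yoda1, are close to the size of counting error.

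**Figure D3:**
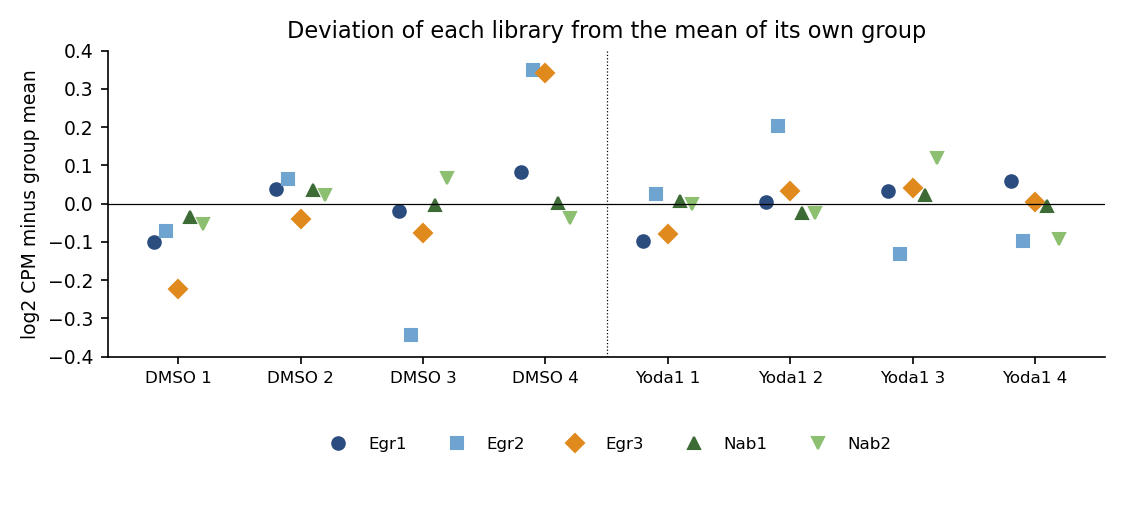
Deviation of each gene's log2 CPM from the mean of its own group (vertical axis) in the 8 libraries (horizontal axis), with DMSO on the left of the dotted line. Egr2 and Egr3 sit at 0.35 and 0.34 in DMSO replicate 4, Egr2 at -0.34 in DMSO replicate 3, and Nab1 stays within 0.04 of 0 throughout.

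The genes whose log2 CPM tracked each member most closely over all 8 libraries were genes that also differed between the groups, since the group difference dominates this measure. Egr3 was nearest to Plek, a cytoskeletal adaptor (r = 0.996), and to Ccl3, a chemokine (0.994), and Ifng, the gene of interferon gamma (0.994), which had log2 fold changes of 1.09, 2.01 and 1.35. Egr2 was nearest to Fbxo34 (0.990), Pmaip1, which encodes the death factor Noxa (0.988), and Slc38a2, a neutral amino acid transporter (0.987), with smaller fold changes of 0.14, 0.27 and 0.45. Egr1 was nearest to Ubash3b (0.987), Ndrg1 (0.986) and Dusp2, a phosphatase of MAP kinases (0.984). Among the members themselves the closest were Egr1 and Egr3 (0.983), where Egr3 ranked 4th of all genes in likeness to Egr1. Nab1 was nearest to Igtp, an interferon-inducible GTPase (0.985), Ccl9 (0.983) and Havcr2, the checkpoint receptor Tim-3 (0.981). Nab2 was nearest to Ubd (0.978), Crem, a cyclic AMP responsive factor (0.973), and Sla (0.973), and Nab1 ranked 14th in likeness to it (0.964). These ranks include the contrast on which the members were selected, unlike the within-group ranks above.

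Of the nearest tested genes beside each member that are named here, only Bin3 passed the test. It lies 17491 bases beyond Egr3 and was higher by 0.20 on the log2 scale (SE 0.053, adjusted p = 0.0129 by edgeR quasi-likelihood and Benjamini-Hochberg adjustment). The nearest neighbour that does not overlap a member, Ado, 2323 bases from Egr2, had a log2 fold change of -0.03. Other neighbours, none past the test, were Etf1 (0.02) and Reep2 (0.01) beside Egr1, Nrbf2 (0.13) beside Egr2, Rhobtb2 (0.09) beside Egr3, Tmem194b (-0.18) beside Nab1, and Lrp1 (0.02) and Zbtb39 (0.12) beside Nab2.

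Genes of the ERK cascade and the serum response factor system, 1 route to Egr genes, were listed together with Creb1 and Mef2 genes. Of these 20 genes, Mef2d alone passed the test, being higher by 0.18 on the log2 scale (SE 0.045, adjusted p = 0.00806 in edgeR). None was lower, so 5% were called, beside 10.9% of all genes tested. These are transcript levels and do not give kinase activity. The paper reports that Yoda1 left ERK phosphorylation, a measure of protein, unaltered, and that it caused calcium influx. The route to the Egr genes was not tested. The median log2 fold change was -0.004, against -0.005 over all genes tested. Srf itself did not pass (0.09, adjusted p = 0.167). At an unadjusted p under 0.05, there were 9 of the 20, beside 25.3% of all genes tested, and under upper-quartile scaling 4 were past the adjusted threshold, the added ones, Creb1, Rps6ka1 and Rps6ka4, being lower. Without DMSO replicate 4, Mef2a was called as well, at 0.17.

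Many other immediate early genes were past the threshold. In 28 tested genes of this class, 16 rose (57.1%, beside 6.04% of all genes tested) and 1 fell (beside 4.84%). The median log2 fold change was 0.33. The list was written with results of these samples known, so it is not independent evidence of a direction. The orphan nuclear receptors of the Nr4a family led, Nr4a2 at 2.11 (SE 0.12), Nr4a3 at 1.505 (SE 0.13) and Nr4a1 at 0.75 (SE 0.055), and Fosb, an AP-1 subunit, stood at 1.34 (SE 0.18). By edgeR quasi-likelihood and Benjamini-Hochberg adjustment their adjusted p-values were 2.33e-11, 0.000309, 2.36e-11 and 3.27e-06. Klf10, a zinc finger gene of TGF-beta signalling, was the 1 that fell, by 0.33 on the log2 scale (adjusted p = 0.000153), and was singled out after its value was seen. Its DMSO libraries were at 42.4 to 43.7 CPM and its Yoda1 libraries at 31.3 to 36.9 CPM. Among AP-1 genes, Jun rose by 0.44 (SE 0.060, adjusted p = 4.41e-06), with every Yoda1 library above every DMSO library, whereas Fos and Junb did not pass (0.25 and 0.02, adjusted p = 0.170 and 0.764), and Fos was present at only 6.61 CPM in DMSO and 7.78 CPM in Yoda1.

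Genes described as targets of Egr2 and Egr3 in lymphocytes, largely from T cell anergy, were past the test in part. Of 20, all tested, 8 rose (40% of the list, beside 6.04% of all genes tested) and none fell (beside 4.84%), and the median log2 fold change was 0.09. The largest were Crtam, an adhesion receptor of activated lymphocytes, and Ccl1, a chemokine that attracts CCR8-bearing cells. Crtam had 22.5 to 26.6 CPM in DMSO libraries and 62.3 to 72.5 CPM in Yoda1 libraries, a log2 fold change of 1.46 (SE 0.059). Ccl1 had 6.97 to 9.60 CPM and 19.99 to 22.8 CPM, a log2 fold change of 1.43 (SE 0.093). Both were thus close to Egr2 and Egr3 in size of change. Sema7a, a membrane-anchored semaphorin, followed at 0.79 (SE 0.081) and Tbx21, which encodes the type 1 factor T-bet, at 0.62 (SE 0.072). In the edgeR test their adjusted p-values were 1.06e-17, 1.26e-12, 1.53e-07 and 3.86e-07. The other genes past the test were Fasl (0.57), Nrgn (0.49), the checkpoint receptor Lag3 (0.41) and Cblb (0.20), which encodes a ubiquitin ligase that sets the activation threshold. Fasl was the 1 of the 8 whose groups overlapped. The classical anergy genes Itch and Dgka did not pass, at 0.04 and 0.03 (adjusted p = 0.614 and 0.758). The list was written with results of these samples known, so it is not independent evidence of a direction.

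Some genes described as direct targets of Egr1 were also past the threshold. Of 18 tested of 21 listed, 5 rose (27.8%, beside 6.04% of all genes tested) and none fell (beside 4.84%), with a median of 0.10. They were Ptges, the inducible prostaglandin E synthase (0.36, SE 0.099), the growth factor gene Pdgfa (0.34, SE 0.075), the adhesion receptor Cd44 (0.21, SE 0.037), Tnf (0.16, SE 0.039) and Icam1 (0.11, SE 0.034), with adjusted p-values of 0.0154, 0.0026, 0.000222, 0.00691 and 0.0275 in the edgeR test. Without Yoda1 replicate 4 the count was 3, Ptges and Icam1 being lost, and without DMSO replicate 3 Ptges was lost. Icam1 was also lost with library size only, upper-quartile factors or the replicate number as a block, and without DMSO replicate 2, DMSO replicate 4 or Yoda1 replicate 1. Tgfb1 (0.03, adjusted p = 0.616 in the edgeR test) and Vegfa (-0.08) did not pass. This list too was written with results of these samples known, so it is not independent evidence of a direction.

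Partners of the Nab and Egr proteins were listed as well, and their counts are read beside the 10.9% of all genes tested that were called. Of 13 subunits of the NuRD complex, none was called by edgeR or by DESeq2, and none had an unadjusted p under 0.05. Their median log2 fold change was 0.03 and the extremes were Gatad2a (-0.09) and Mta2 (0.07). Chd4, the helicase that Nab2 binds, was at 578 ± 40.3 CPM in DMSO and 575 ± 38.5 CPM in Yoda1 (SD, n = 4 each), and the difference was -0.01 on the log2 scale. Without DMSO replicate 1, Gatad2a alone was called, at -0.14. Of 10 other proteins that bind, modify or share sites with Egr proteins, none was called by either tool and 1 had an unadjusted p under 0.05, with a median of -0.01. The host cell factor gene Hcfc1 had -0.002 and the acetyltransferase gene Crebbp -0.14 (adjusted p = 0.987 and 0.732), and without DMSO replicate 1 the ubiquitin ligase gene Wwp2 was called, at -0.14.

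**Figure D4:**
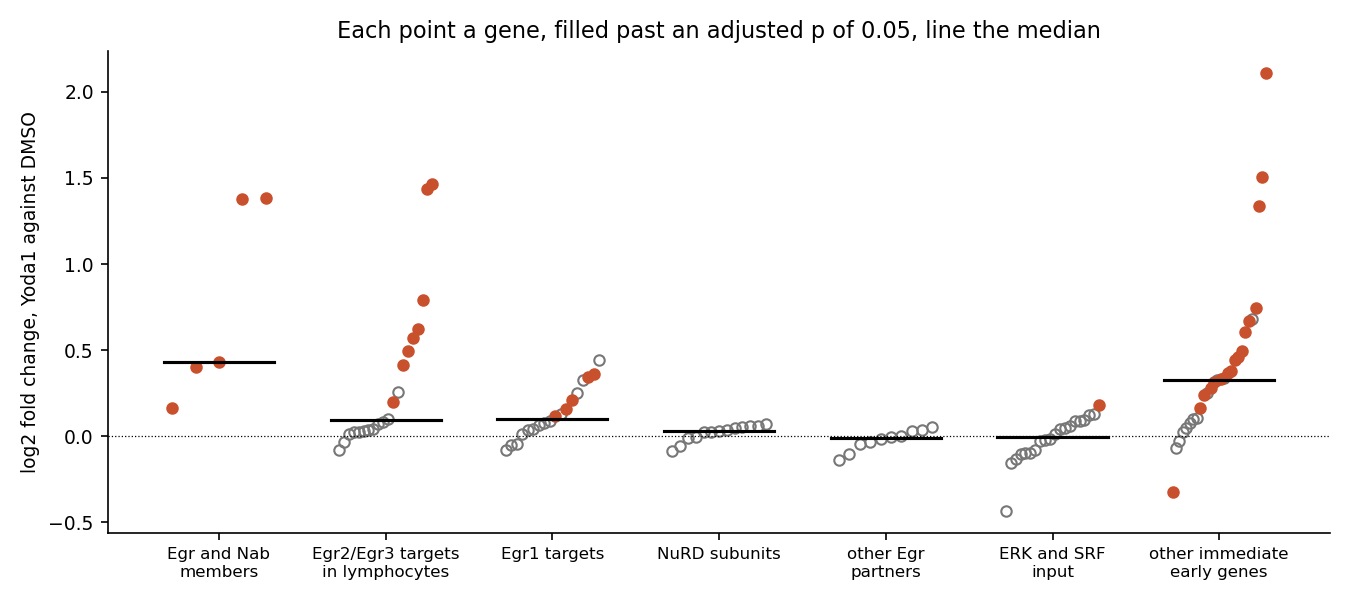
Log2 fold change of Yoda1 against DMSO (vertical axis) for the tested genes of each group (horizontal axis), filled in orange at an adjusted p under 0.05 (edgeR), with a line at the median. The medians of the NuRD subunits, other Egr partners and ERK and SRF input lie at 0.03, -0.01 and -0.004, that of the other immediate early genes at 0.33, and the Egr and Nab genes are shown as a description.

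Heat shock genes can rise on handling. Of 6 tested, 2 rose, beside 6.04% of all genes tested, Hspa1a at 1.01 (SE 0.26) and Hspa1b at 0.54 (SE 0.14; adjusted p = 0.00906 and 0.0119 in edgeR), from 0.767 to 1.03 CPM in DMSO to 1.35 to 2.18 CPM in Yoda1 for Hspa1a. Hspa8 and Hsp90aa1, the abundant members, stood at 0.03 and -0.05. These near-identical Hspa1 copies can share reads, and their part in the Egr and Nab values was not tested.

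Across the transcriptome, the shares of genes that rose or fell were similar with and without an Egr site in the promoter window. RefSeq windows matched 9633 of the tested genes, of which 6.11% were higher and 4.84% lower. Of 736 genes with GCGTGGGCG or GCGGGGGCG, 52 (7.07%) rose and 35 (4.76%) fell, and of 8897 without, 6.04% rose and 4.84% fell. The medians were 0.007 and -0.006 on the log2 scale. Among 75 genes with 2 or more sites, 4 rose and 4 fell. The count past the threshold among genes with a site, 87, was 56 without Yoda1 replicate 4. The largest changes were in genes with few counts: Ocln, a tight junction gene, at 2.20 (SE 0.31), Fosb at 1.34, the corepressor gene Cbfa2t3 at -1.25 (SE 0.24), Tjp1, another tight junction gene, at -0.95 (SE 0.13), and the kinase gene Nuak1 at -0.77 (SE 0.24). They had at most 120 counts in any library, and their adjusted p-values ran from 3.27e-06 to 0.037 in the edgeR test.

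Of all tested genes with a promoter window, 7.64% held an Egr site in it. Of the lymphocyte targets, 17 had a window and 1 of these, Socs3, held an Egr site. None of the 6 called ones with a window did. Of the Egr1 targets, 3 of 14 held one (Plaur, Tgfb1 and Mmp14), and none of the 5 called ones. Of the other immediate early genes, 7 of 23 held one, 5 of them among the 15 called with a window. The windows cover 300 bases, and described targets may be bound elsewhere.

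**Figure D5:**
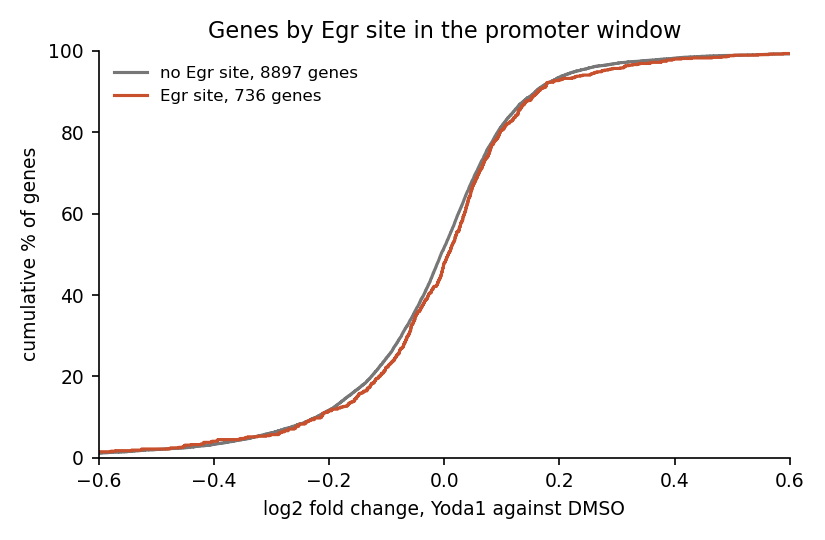
Cumulative percentage of tested genes (vertical axis) by log2 fold change of Yoda1 against DMSO (horizontal axis, cropped to -0.6 to 0.6) for 736 genes with an Egr site in the promoter window (orange) and 8897 without (grey). The curves run close together, with medians of 0.007 and -0.006.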

How the data were processed

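The authors deposited whole-number raw counts per gene symbol for each library, without normalization. The paper lists BBMap, Cufflinks, FastQC and FASTX Trimmer, and the submitters' processing notes name TopHat and mm10, which is GRCm38. Tool versions, annotation and strand setting are not given in the sources used here. From the counts, genes were filtered with filterByExpr (minimum count 10, minimum total 15), scaled by TMM and compared by the quasi-likelihood test of edgeR 4.0.16 (R 4.3.3, robust, 4 Yoda1 against 4 DMSO, Benjamini-Hochberg adjustment over 12239 genes, threshold 0.05), after the script was tested on simulated data. Correlations used log2 CPM with a prior count of 2. Lengths and positions came from GENCODE M21, in which 22148 symbols matched and 642 more through synonyms. Within each group every pair of libraries differed by more than sampling noise (chi-square per gene 2.03 to 6.94), so all 8 were kept. The 95% intervals come from the SE of the edgeR fit, which includes the spread between libraries. The floor of 3 counts covers counting error only. The members and lists were chosen with earlier results of these data known. Genes named are the members, Egr4, overlapping and neighbouring genes, the 4 largest called members of each list with up to 2 well-known others, the 3 genes most like each member, the 5 largest changes among called genes with an Egr site, and, after their values were seen, further called members of lists and members that changed call. Alternatives were DESeq2 1.42.0, limma-voom (limma 3.58.1), other scalings, filters and lengths, a replicate block, and each library left out. A few genes that these rules would name are not reported here.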

Additional observations from a re-analysis of the deposited data

How the results depend on the processing

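All 5 Egr and Nab genes stayed higher in Yoda1 and past the threshold in every alternative run, with log2 fold changes over single left-out libraries of 0.40 to 0.46 for Egr1, 1.28 to 1.49 for Egr2, 1.32 to 1.5001 for Egr3, 0.15 to 0.17 for Nab1 and 0.36 to 0.43 for Nab2. Of the values recomputed under alternatives, 359 stayed within their limits and 22 moved, none reversing a called direction. These limits were wide, being 1.5-fold for a count. For example, 893 calls against 1331 were taken as unmoved, as was an r of 0.018 against 0.44 for Egr1 and Nab1. Over all genes, 1331 calls (893 to 1484 with one library left out) were 1033 by DESeq2, and 55.5% of calls were higher, against 40.8% with library size only and 34.5% with upper-quartile factors, which gave 958 lower calls against 592. With one library left out, lower calls ranged from 367 to 677, called Egr1 targets from 3 to 5, NuRD subunits and other Egr partners each from 0 to 1, and ERK and SRF genes from 1 to 2. The last were 2 with library size only and 4 with upper-quartile factors. Called genes with an Egr site ranged from 56 to 88. The same replicate numbers did not deviate together (correlations 0.05, 0.07, -0.03 and 0.0002). This cannot show whether the numbers pair samples by mouse or culture, which the sources do not state. With the replicate block there were 966 calls in all and 56 genes with an Egr site, and all 5 members were called.

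By coding length the Egr1 share was 57.0% in DMSO and 40.5% in Yoda1, that of Egr2 12.5% and 17.3%, and that of Egr3 30.5% and 42.1%. By the longest transcript the Yoda1 shares were 41.1% for Egr1 and 35.3% for Egr3. Correlations with one library left out ranged from -0.011 to 0.73 for Egr2 and Egr3, from -0.22 to 0.58 for Egr3 and Nab1, and from -0.32 to 0.46 for Egr3 and Nab2. The causes were not tested. Depth limits what can be said of Egr4.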
